A study of Mus musculus with 36 samples.

Results

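The tibialis anterior (TA), a fast muscle at the front of the lower hind limb, was compared between 2 dystrophin-deficient mouse strains and normal mice by choosing the arrays titled mdx TA (2 arrays), mdx5cv TA (2 arrays) and C57BL10 TA (2 arrays), 6 of the 36 arrays of the series. Each array carried total RNA pooled from 5 male mice aged 8 weeks. mdx and mdx5cv mice each carry a point mutation of the X-linked dystrophin gene, and C57BL10 is the normal strain. No treatment is named for any group. The labels do not name the strain background of mdx5cv. Pooling hides differences between mice. The labels do not say whether the 2 pools of a group came from separate mice, so p-values measure the spread between these pools, which may be technical. The series also holds EDL (extensor digitorum longus), gastrocnemius, quadriceps, soleus and diaphragm of the same 3 strains, which served here for comparison.

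Dystrophin sits under the fibre membrane and ties actin, through a complex of membrane proteins, to the laminin of the basement membrane. Without it, fibres are damaged by contraction, die and are cleared by macrophages, satellite cells rebuild them with embryonic muscle proteins, and fibroblasts lay down collagen. In mdx mice of this age, limb muscles are known to pass through such cycles of degeneration and regeneration. In RNA of whole muscle, fewer cells of a type and less RNA per cell cannot be told apart.

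The values are deposited linear signals of Affymetrix probe sets, each array scaled to the same trimmed mean, and signals under 118 were raised to that floor before log2. A difference between TA groups that involves arrays under the floor depends on it and understates the change, and where a whole TA group lies under it the difference is given as a bound. Fast fibre genes summed to between 845040 and 2759164 signal units on the 6 TA arrays, inside or above the range of 729163 to 1734572 in the other C57BL10 limb muscles. Slow fibre genes summed to between 126597 and 290177 on the TA arrays, toward the low end of the range of 119151 to 1194494 in the other C57BL10 limb muscles. These sums go with the label of a fast muscle but do not set TA apart from all other limb muscles.

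One of the 6 arrays stood apart. The median signal of C57BL10 TA sample 2 was 1026 against 578 for C57BL10 TA sample 1 and 458 to 887 for all 33 other distinct arrays. Its first percentile was 218 against 15.8 for sample 1, and its log2 signals had an SD of 1.23 against 2.06. Across probe sets its Spearman correlation with C57BL10 TA sample 1 was 0.665, while sample 1 correlated at 0.871 to 0.92 with the 4 mutant TA arrays. The range of sample 2 is compressed: low signals are raised and high signals are lowered. Most results that rest on C57BL10 TA are therefore given with both arrays and again without sample 2. Some are given with both arrays alone, among them gene differences of each mutant and some interactions. Without sample 2 the lone C57BL10 array is assumed to vary like the other groups. A second array of compressed range, mdx5cv quadriceps sample 2 (first percentile 142), is no TA array but enters the shared estimate of the spread. In 2 cases a gastrocnemius column (mdx sample 2, mdx5cv sample 1) holds the same values as a quadriceps column of the same strain (mdx sample 2, mdx5cv sample 1). Each pair was used once, as quadriceps, which leaves 1 gastrocnemius array in each mutant. Experiment files cover 3 TA arrays, and C57BL10 TA sample 1 was the only array of the last scanning period, while mdx TA sample 2 and mdx5cv TA sample 1 were scanned in an earlier one. Scanning period and the C57BL10 TA group can therefore not be told apart, and no fit with period as a block could be made for mutant against C57BL10 TA.

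C57BL10 TA also carried transcripts of liver genes. Over the genes of liver secreted proteins, the mean log2 signal was 11.16 and 10.88 on the C57BL10 TA arrays, 9.21 and 9.25 in mdx TA, and 9.01 and 8.34 in mdx5cv TA. The 8 arrays of the other C57BL10 limb muscles lay between 7.83 and 8.31, and the 2 arrays of C57BL10 diaphragm, the muscle that lies against the liver, at 14.52 and 14.55. Both C57BL10 TA arrays lay above all 4 mutant TA arrays, and all 6 lay above every array of the other C57BL10 limb muscles, mdx5cv TA sample 2 only just (8.34 against 8.31). The 14 distinct arrays of the other mutant limb muscles lay between 7.87 and 9.68, so the mutant TA arrays lay within their range.

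**Figure D1:**
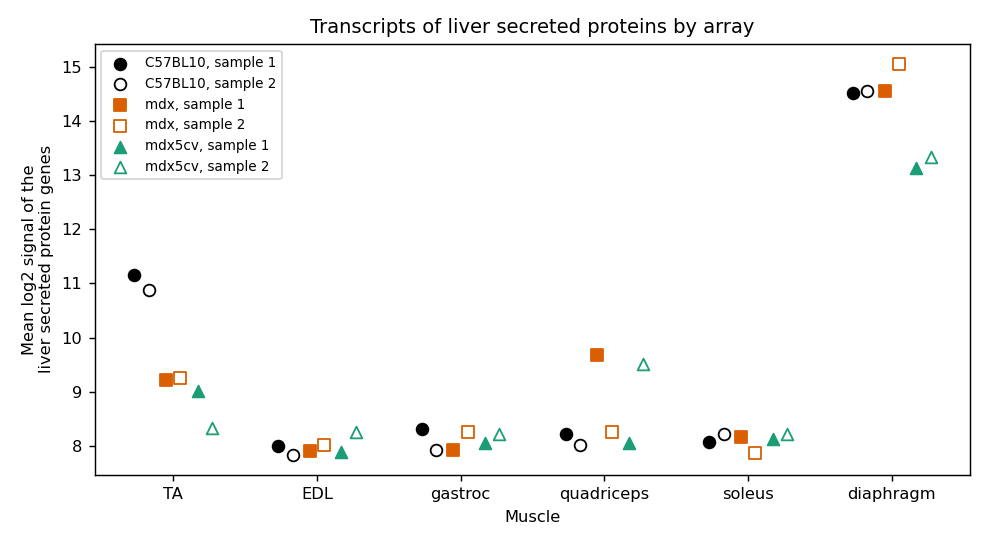
Mean log2 signal of the genes of the liver secreted protein list (vertical axis) on each of the 36 arrays, by muscle (horizontal axis), with symbols for strain and filled or open for sample 1 or 2. The C57BL10 TA arrays, at 11.16 and 10.88, lie above the mutant TA arrays (8.34 to 9.25) and below the diaphragm arrays, which reach 13.13 or more. A gastrocnemius and a quadriceps point of equal height in each mutant are the same column deposited under 2 titles.

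Albumin (Alb), the main plasma protein made by hepatocytes, gave signals of 30966 and 9771 in C57BL10 TA, 3399 and 4172 in mdx TA, and 3452 and 450.4 in mdx5cv TA. The difference with both C57BL10 arrays, -3.0 ± 0.91 (SE, adjusted p = 0.061), did not pass the adjusted threshold of 0.05, and mdx5cv TA sample 2 was far lower than the other mutant arrays. Ahsg, the liver glycoprotein fetuin-A, had signals of 2219 and 1311 in C57BL10 TA, 115 and 157 in mdx TA, and 156 and 76.5 in mdx5cv TA. The groups did not overlap. With 2 mutant arrays under the floor of 118 and counted as 118, the log2 difference between mutant and C57BL10 TA was -3.65 ± 0.52 (SE, adjusted p = 1.2e-04) and -4.03 ± 0.65 (SE, adjusted p = 0.0012) without it. Apoa1, the main protein of high-density lipoprotein, read 4496 and 1989.5 in C57BL10 TA, 532 and 816 in mdx TA, and 227 and 140.5 in mdx5cv TA. All 4 mutant arrays were lower, with a log2 difference of -3.12 ± 0.61 (SE, adjusted p = 0.0033) and -3.71 ± 0.78 (SE, adjusted p = 0.01) without it.

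Of the 50 liver genes tested, 39 had a higher signal than in all 8 other C57BL10 limb arrays on C57BL10 TA sample 1, where 13.4% of all genes tested did, and 39 on sample 2, where 32.9% did. The share over all genes is raised on sample 2, as its low signals are, so its count says less about liver genes. In the mutants the count was 25 and 21 for mdx TA (20.7% and 19.1% of all genes) and 19 and 11 for mdx5cv TA (20.2% and 14.3%). Over these genes, C57BL10 TA sample 1 lay a median of 3.52 log2 units below C57BL10 diaphragm, and across them its signals had a Spearman correlation of 0.826 with those of diaphragm (0.396 for sample 2), given as a description. In the comparison of C57BL10 TA with the other C57BL10 limb muscles, 33 of the 50 were higher (3.25% of all genes tested were) and 0 lower, by limma at an adjusted p under 0.05. Without sample 2, 23 were higher (0.474% of all genes were) and 0 lower. C57BL10 TA sample 1, whose range is not compressed, shows them on its own. Whether carried-over liver tissue took part in the differences between mutant and C57BL10 TA was not tested.

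The targeted gene was examined first. Dmd, which encodes dystrophin, gave 882 and 1458 in C57BL10 TA, 189.7 and 211 in mdx TA, and 258 and 406 in mdx5cv TA. All 4 mutant arrays lay below both C57BL10 arrays, and the log2 difference was -2.16 ± 0.52 (SE, adjusted p = 0.018). Without C57BL10 TA sample 2 it was -1.79 ± 0.66 (SE, adjusted p = 0.27), which no longer passed the threshold. Both mutations are point mutations, so a lower but measurable Dmd signal does not contradict the labels. Utrn, which encodes utrophin, the autosomal relative of dystrophin, had 2 tested probe sets. The one with the higher mean read 246 and 1178 in C57BL10 TA, 458 and 808 in mdx TA, and 359 and 435 in mdx5cv TA, with a difference of -0.14 ± 0.44 (SE, adjusted p = 0.88). C57BL10 TA sample 2 was the highest and sample 1 was not, so the direction turned with the C57BL10 array left out, from -1.27 to 1.00 over the fits without 1 array. The second read 562 and 951 in C57BL10 TA, 246 and 465 in mdx TA, and 331 and 337 in mdx5cv TA. All 4 mutant arrays lay below both C57BL10 arrays, but the difference passed neither with sample 2, at -1.12 ± 0.60 (SE, adjusted p = 0.27), nor without it, at -0.74 ± 0.77 (SE, adjusted p = 0.95). With both C57BL10 arrays the 2 probe sets thus both lay below 0 without passing, and without sample 2 their directions differed, at 1.00 and -0.74.

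In the main comparison, mutant TA (the mean of mdx and mdx5cv) minus C57BL10 TA, the genes that changed both with and without sample 2 included markers of macrophages and lysosomes, collagens and other matrix genes, genes of regenerating fibres and metallothionein 2 (higher), and genes of the liver lists and the slow myosin light chain Myl3 (lower). The limma fit over all arrays called 322 of 7453 probe sets (4.32% of those tested), 242 higher and 80 lower in the mutants. Without C57BL10 TA sample 2 it called 124 (1.66%), 94 higher and 30 lower, of which 83 were called both ways and none changed sign. Counting 1 probe set for each of 5692 genes, 254 were called (4.46%) with both C57BL10 arrays, 196 higher (3.44%) and 58 lower (1.02%). Without sample 2 the count was 99 genes (1.74%), 78 higher (1.37%) and 21 lower (0.369%). The calls rest on a spread shared with the other muscles: the 6 TA arrays fitted alone, with 3 residual degrees of freedom, gave 0 calls by limma after adjustment and 707 probe sets at an unadjusted p under 0.05. Weighting arrays by their quality left 15 calls.

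The set of 66 genes called both ways, 47 higher and 19 lower, was chosen as the base of the description after the values were seen. In 63 of them the mutant and C57BL10 arrays did not overlap. The genes were picked by calls on these same arrays, which favours such separation, so this count is no separate support. Over all genes tested, the 4 mutant arrays lay above both C57BL10 arrays in 601 (10.6%) and below both in 503 (8.84%).

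**Figure D2:**
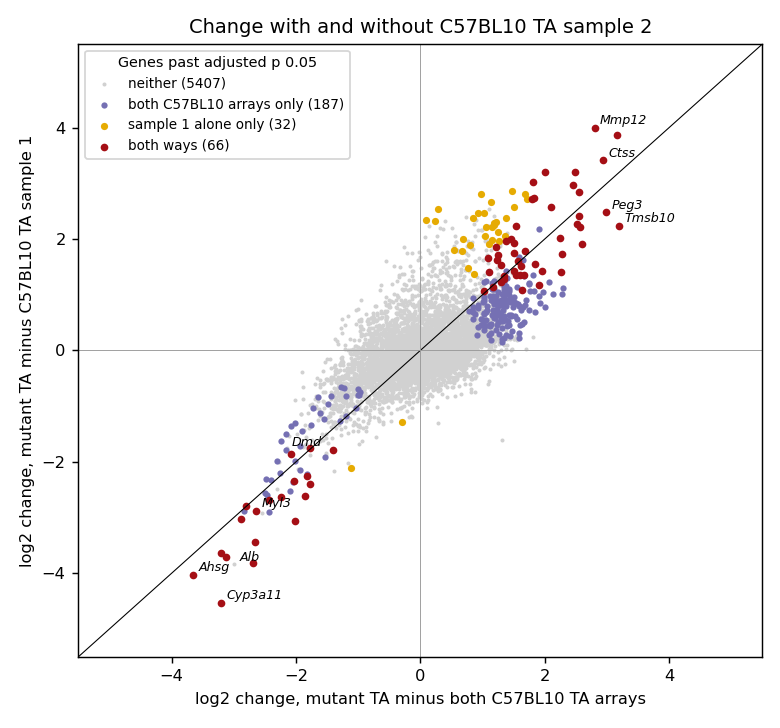
Log2 change of each of 5692 genes in mutant TA against both C57BL10 TA arrays (horizontal axis) and against C57BL10 TA sample 1 alone (vertical axis), with the line of equality. Red points are the 66 genes past the threshold both ways. Among the higher genes, those called only with both C57BL10 arrays lie mostly below the line, and those called only with sample 1 lie mostly above it. The counts in the legend use rounded adjusted p-values and can differ slightly from those in the text.

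Some markers of macrophages and lysosomes were among the largest rises. The list counts below stand beside 3.44% of all genes higher and 1.02% lower with both C57BL10 arrays. Ctss encodes cathepsin S, a lysosomal protease of antigen-presenting cells, and its signals were 801 and 1538 in C57BL10 TA, 8393 and 6998 in mdx TA, and 12267 and 7261 in mdx5cv TA. Every mutant array was above both C57BL10 arrays, and the log2 difference was 2.94 ± 0.26 (SE, adjusted p = 4.2e-07) and 3.41 ± 0.28 (SE, adjusted p = 2.6e-07) without it. Lgals3, the galectin of activated macrophages, gave 267 and 712 in C57BL10 TA, 2843 and 4834 in mdx TA, and 4747 and 3520.2 in mdx5cv TA. Its difference was 3.16 ± 0.41 (SE, adjusted p = 4.6e-05) and 3.87 ± 0.48 (SE, adjusted p = 5.6e-05) without it. Lyz2, lysozyme of myeloid cells, read 1617 and 1157 in C57BL10 TA, 6025 and 7448 in mdx TA, and 13056 and 6372 in mdx5cv TA, with no overlap and the highest value in mdx5cv TA sample 1. It rose by 2.51 ± 0.31 (SE, adjusted p = 3.5e-05) and 2.27 ± 0.39 (SE, adjusted p = 0.0022) without it. Mmp12, macrophage elastase, had signals of 70.1 and 621 in C57BL10 TA, 2732 and 1129 in mdx TA, and 1803 and 2228 in mdx5cv TA. The C57BL10 arrays differed widely between themselves, with sample 1 under the floor, and all 4 mutant arrays were higher, as the choice of the gene required. The log2 difference was 2.80 ± 0.53 (SE, adjusted p = 0.0027) with both C57BL10 arrays, and against sample 1 alone the mutants were at least 16-fold higher (adjusted p = 3.4e-04), counting sample 1 at the floor.

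Of 22 macrophage genes tested, 4 were higher and 0 lower with both C57BL10 arrays (list median 0.66, against 0.04 over all genes), and 8 were higher and 0 lower without sample 2 (median 1.33, against -0.04). With both C57BL10 arrays, 68.2% of the 22 lay above 0, against 52.4% of all genes, and the rest, such as Fcgr1, did not. Csf1r, the receptor for the macrophage growth factor, read 972 and 2018 in C57BL10 TA, 2272 and 2261 in mdx TA, and 3267 and 2469 in mdx5cv TA. C57BL10 TA sample 2 came close to the mutants, and the difference passed only without it: 0.86 ± 0.25 (SE, adjusted p = 0.053) with both arrays and 1.38 ± 0.26 (SE, adjusted p = 0.0049) without. The summed signal of the list was 15104 in C57BL10 TA sample 1, 32784 in sample 2 and 32817 to 50118 in the mutants. Ccl2, the chemokine that draws monocytes, gave 118 and 554 in C57BL10 TA, 477 and 740.4 in mdx TA, and 2462 and 522 in mdx5cv TA. Its values spread widely among the mutants, and its difference was 1.68 ± 0.50 (SE, adjusted p = 0.056) and 2.80 ± 0.54 (SE, adjusted p = 0.0054) without it.

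Among lysosomal genes, 9 of 24 were higher with both C57BL10 arrays and 3 without sample 2, with none lower either way and medians of 0.83 and 0.74. Lgmn, the asparaginyl protease legumain, had 958 and 1338 in C57BL10 TA, 2134 and 2710.2 in mdx TA, and 5219 and 3541 in mdx5cv TA and rose by 1.51 ± 0.28 (SE, adjusted p = 0.0022) and 1.75 ± 0.34 (SE, adjusted p = 0.0058) without it. Ctsb, cathepsin B, rose by 1.32 ± 0.28 (SE, adjusted p = 0.0064) with both arrays and read 0.81 ± 0.30 (SE, adjusted p = 0.26) without sample 2. Ctsz and Cd63 likewise passed only with sample 2, on which their signals were 224 and 2243, far under the 811 and 7646 of sample 1.

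Some complement genes and few antigen presentation genes passed. C1qb, a chain of the C1q recognition molecule, gave 944 and 628 in C57BL10 TA, 2269 and 3791 in mdx TA, and 2847 and 2388 in mdx5cv TA, without overlap. Its difference was 1.84 ± 0.27 (SE, adjusted p = 2.2e-04) and 1.55 ± 0.33 (SE, adjusted p = 0.012) without it. C1qa, C1qc and Serping1 passed with both C57BL10 arrays only, so that 4 of 8 complement genes were higher, and 1 without sample 2, where 3.44% and 1.37% of all genes were. H2-Aa, an MHC class II chain, read 1495 and 1174 in C57BL10 TA, 4079 and 5376 in mdx TA, and 2939 and 3306 in mdx5cv TA and rose by 1.53 ± 0.28 (SE, adjusted p = 0.0019) and 1.35 ± 0.34 (SE, adjusted p = 0.046) without it. Of 15 antigen presentation genes, 2 were higher with both arrays and 1 without sample 2, and 0 were lower, with list medians of 0.49 and 0.28. Of 12 interferon-response genes, 0 were called by limma in either fit, and the list medians were 0.39 and 0.42.

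Matrix genes were the next group. Postn, the matricellular protein periostin, had signals of 1396 and 850.4 in C57BL10 TA, 5702 and 4345 in mdx TA, and 7927 and 8860.2 in mdx5cv TA. Both mutants were far above both C57BL10 arrays, by 2.57 ± 0.27 (SE, adjusted p = 3.4e-06) and 2.21 ± 0.32 (SE, adjusted p = 3.6e-04) without it. Col5a2, a chain of fibril-regulating collagen V, gave 1620.1 and 762 in C57BL10 TA, 4071 and 3390.4 in mdx TA, and 8126 and 7507 in mdx5cv TA and rose by 2.28 ± 0.29 (SE, adjusted p = 3.9e-05) and 1.73 ± 0.32 (SE, adjusted p = 0.0039) without it. Col3a1, the main chain of reticular collagen III, read 5503 and 2683 in C57BL10 TA, 10814 and 11432 in mdx TA, and 21112 and 18493 in mdx5cv TA. Its difference was 1.95 ± 0.29 (SE, adjusted p = 2.1e-04) and 1.43 ± 0.31 (SE, adjusted p = 0.015) without it, and the mdx5cv arrays were above the mdx arrays. Col4a1 of the basement membrane, Col6a3 and the proteoglycan Lum were also called both ways, with differences of 1.60, 1.66 and 1.63 with both C57BL10 arrays and 1.35, 1.35 and 1.09 without sample 2. Over the list, 11 of 35 matrix genes were higher and 0 lower with both arrays, and 6 were higher and 0 lower without sample 2, with medians of 0.68 and 0.67. Col1a1, a chain of collagen I, read 10297 and 6546 in C57BL10 TA, 22522 and 22190.0 in mdx TA, and 28391 and 31976 in mdx5cv TA and passed only with sample 2: 1.66 ± 0.30 (SE, adjusted p = 0.0022) against 1.33 ± 0.36 (SE, adjusted p = 0.067).

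Of 13 fibroblast genes tested, 4 were higher and 0 lower with both C57BL10 arrays, where 3.44% and 1.02% of all genes were. The list median was 0.41 against 0.04 over all genes, and 69.2% of the 13 lay above 0. All 4 mutant arrays lay above both C57BL10 arrays in 3 of them and below both in 1, where 10.6% and 8.84% of all genes did. Without sample 2 the list median was 0.53, against -0.04 over all genes. S100a4, a calcium-binding protein of fibroblasts and leukocytes, read 493 and 743 in C57BL10 TA, 3071 and 3154 in mdx TA, and 3767 and 4305 in mdx5cv TA. It rose by 2.55 ± 0.28 (SE, adjusted p = 6.8e-06) and 2.84 ± 0.35 (SE, adjusted p = 5.5e-05) without it. Thy1, a surface protein of fibroblasts and of T cells, gave 224 and 792 in C57BL10 TA, 1814 and 734 in mdx TA, and 2010.4 and 1722 in mdx5cv TA, where C57BL10 TA sample 2 overlapped with 1 mdx array. It rose by 1.80 ± 0.46 (SE, adjusted p = 0.027) and 2.71 ± 0.52 (SE, adjusted p = 0.0054) without it. Pdgfra, the receptor that marks fibro-adipogenic cells, read 3245 and 797 in C57BL10 TA, 5247 and 4563 in mdx TA, and 4936 and 7059.5 in mdx5cv TA, and its difference of 1.74 ± 0.46 (SE, adjusted p = 0.03) became 0.73 ± 0.49 (SE, adjusted p = 0.81) without sample 2.

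**Figure D3:**
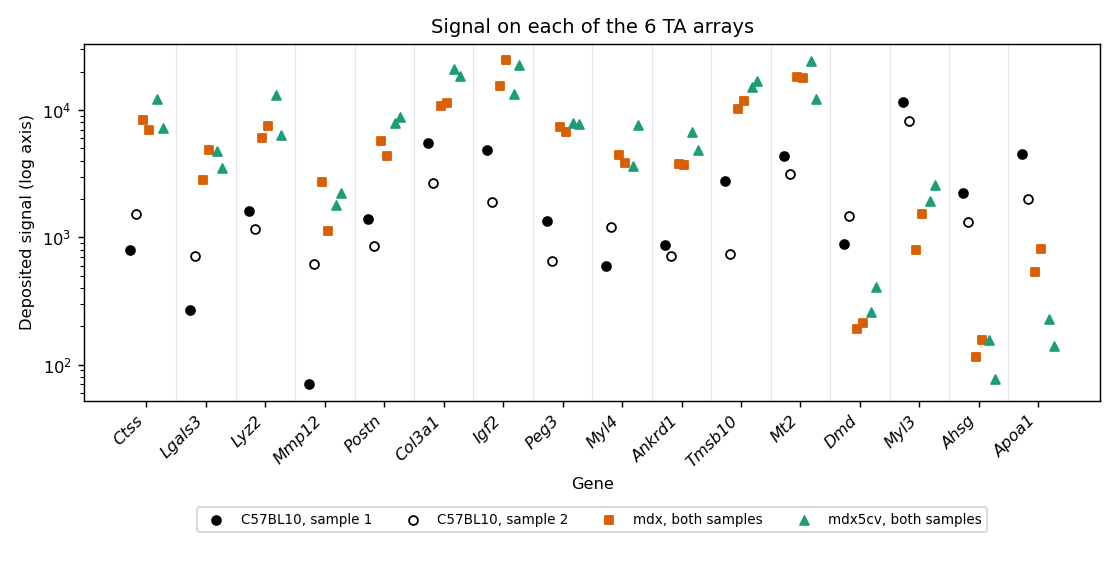
Deposited signal (vertical log axis) of 16 named genes on each of the 6 TA arrays, with filled and open circles for C57BL10 TA samples 1 and 2, squares for mdx TA and triangles for mdx5cv TA. From Ctss to Mt2 the mutant arrays lie above both C57BL10 arrays, and from Dmd to Apoa1 below them. The 2 C57BL10 arrays are farthest apart for Mmp12.

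Genes of regenerating fibres rose as well, 11 of 28 with both C57BL10 arrays and 9 without sample 2, with none lower and medians of 0.99 and 1.17. Myl4, the embryonic and atrial myosin light chain, read 592 and 1207 in C57BL10 TA, 4457 and 3828 in mdx TA, and 3635 and 7568 in mdx5cv TA. The groups did not overlap, and the difference was 2.46 ± 0.36 (SE, adjusted p = 2.0e-04) and 2.97 ± 0.43 (SE, adjusted p = 3.6e-04) without it. Myh3, embryonic myosin heavy chain, gave 184 and 634 in C57BL10 TA, 735 and 677 in mdx TA, and 1466 and 3023 in mdx5cv TA. The lowest mutant array was close to C57BL10 TA sample 2 but above it, and the difference was 1.83 ± 0.40 (SE, adjusted p = 0.01) and 2.73 ± 0.43 (SE, adjusted p = 9.9e-04) without it. Ankrd1, a stretch-responsive protein of the sarcomere and nucleus, had 867 and 715 in C57BL10 TA, 3777 and 3714 in mdx TA, and 6735 and 4848 in mdx5cv TA and rose by 2.55 ± 0.35 (SE, adjusted p = 7.9e-05) and 2.42 ± 0.45 (SE, adjusted p = 0.0043) without it.

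Igf2, an imprinted growth factor of developing muscle, gave 4889 and 1892 in C57BL10 TA, 15304 and 24605 in mdx TA, and 13460.4 and 22595 in mdx5cv TA. It rose by 2.60 ± 0.39 (SE, adjusted p = 2.3e-04) and 1.91 ± 0.44 (SE, adjusted p = 0.022) without it. Peg3, an imprinted gene expressed in muscle stem cells, read 1333 and 657 in C57BL10 TA, 7343 and 6766 in mdx TA, and 7909.9 and 7703 in mdx5cv TA, with all mutant arrays near one another and far above C57BL10 TA. Its difference was 2.99 ± 0.31 (SE, adjusted p = 2.7e-06) and 2.48 ± 0.35 (SE, adjusted p = 3.4e-04) without it. Tmsb10, thymosin beta 10, which binds actin monomers, had 2794 and 739.9 in C57BL10 TA, 10139.6 and 11763 in mdx TA, and 15244 and 16797 in mdx5cv TA and differed by 3.20 ± 0.41 (SE, adjusted p = 3.9e-05) and 2.24 ± 0.42 (SE, adjusted p = 0.0045) without it. Myog, the differentiation factor myogenin, read 554 and 1436 in C57BL10 TA, 2585 and 2800.2 in mdx TA, and 1484 and 2562 in mdx5cv TA and passed only without sample 2, at 2.05 ± 0.47 (SE, adjusted p = 0.022) against 1.36 ± 0.40 (SE, adjusted p = 0.054) with it.

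The promoter windows below (RefSeq, build GRCm38.p6, 250 bases before to 50 after each start) are shown for 2 of these rising fibre genes with each E-box, CANNTG, in capitals. E-boxes are the letters that myogenic factors such as MyoD and myogenin bind. Both read 5′ to 3′ on the strand of the gene. The Myh3 window lies at chr11:67078050-67078349, plus strand, and that of Ankrd1 at chr19:36119795-36120094, minus strand.
Myh3: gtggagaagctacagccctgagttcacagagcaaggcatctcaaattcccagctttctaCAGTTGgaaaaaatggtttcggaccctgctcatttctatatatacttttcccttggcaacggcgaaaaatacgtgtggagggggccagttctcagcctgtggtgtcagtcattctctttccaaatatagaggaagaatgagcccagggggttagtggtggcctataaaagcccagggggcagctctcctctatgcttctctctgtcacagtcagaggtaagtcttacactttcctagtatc
Ankrd1: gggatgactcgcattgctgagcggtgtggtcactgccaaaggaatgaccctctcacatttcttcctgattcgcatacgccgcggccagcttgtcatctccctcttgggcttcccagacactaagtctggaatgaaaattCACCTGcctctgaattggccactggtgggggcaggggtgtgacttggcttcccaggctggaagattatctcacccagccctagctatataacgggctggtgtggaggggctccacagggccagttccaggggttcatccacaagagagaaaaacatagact
Each of the 2 windows held 1 E-box, that of Myl4 held 0, and the 2 windows of Tnni1 held 4 and 2. Of all 32851 promoter windows, 72.3% held at least 1, so the match does not set these genes apart.

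Of the stress genes, metallothionein 2 (Mt2), which binds zinc and copper, read 4370.4 and 3168 in C57BL10 TA, 18079.5 and 17805 in mdx TA, and 24388 and 12211 in mdx5cv TA. It rose in every mutant array, by 2.24 ± 0.27 (SE, adjusted p = 2.2e-05) and 2.01 ± 0.32 (SE, adjusted p = 0.0011) without it. Its neighbour Mt1 gave 1972 and 1746 in C57BL10 TA, 4105 and 4789 in mdx TA, and 5641 and 5006 in mdx5cv TA, also without overlap, and its difference of 1.39 ± 0.31 (SE, adjusted p = 0.011) became 1.30 ± 0.39 (SE, adjusted p = 0.11) without sample 2. Both promoters are known to carry metal response elements, bound by the zinc-sensing factor MTF1. They are shown with TGCGCNC and TGCACNC, searched on both strands, in capitals. The Mt2 window lies at chr8:94172368-94172667, plus strand, and that of Mt1 at chr8:94178839-94179138, plus strand.
Mt2: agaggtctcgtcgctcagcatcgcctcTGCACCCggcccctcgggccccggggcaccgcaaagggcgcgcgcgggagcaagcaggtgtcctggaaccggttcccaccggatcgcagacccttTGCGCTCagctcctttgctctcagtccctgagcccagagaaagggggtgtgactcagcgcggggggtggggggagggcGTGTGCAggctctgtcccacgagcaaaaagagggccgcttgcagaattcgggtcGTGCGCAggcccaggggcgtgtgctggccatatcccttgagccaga
Mt1: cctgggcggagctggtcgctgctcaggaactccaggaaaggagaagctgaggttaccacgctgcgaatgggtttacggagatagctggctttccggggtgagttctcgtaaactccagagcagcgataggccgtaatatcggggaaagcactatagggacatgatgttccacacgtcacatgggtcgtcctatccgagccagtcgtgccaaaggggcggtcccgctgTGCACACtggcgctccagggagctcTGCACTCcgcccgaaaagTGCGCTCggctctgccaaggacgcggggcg
The Mt2 window held 4 matches and the Mt1 window 3. At least 3 matches were found in 1.97% of all 32851 promoter windows, and at least 1 in 25.7%. A match is a description of the letters, not evidence of binding.

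Contractile and membrane genes were mixed. Myl3, the slow and ventricular myosin light chain, read 11528 and 8249 in C57BL10 TA, 789 and 1513 in mdx TA, and 1925 and 2593 in mdx5cv TA. All mutant arrays were lower, with a log2 difference of -2.64 ± 0.43 (SE, adjusted p = 6.6e-04) and -2.88 ± 0.56 (SE, adjusted p = 0.0054) without it. Tnni1, slow troponin I, moved the other way, with 2714 and 2364 in C57BL10 TA, 7565 and 6716 in mdx TA, and 6051 and 12032 in mdx5cv TA and a difference of 1.62 ± 0.28 (SE, adjusted p = 0.0014) and 1.52 ± 0.35 (SE, adjusted p = 0.022) without it. Tnnt1, slow troponin T, read 1792 and 1726 in C57BL10 TA, 3578 and 7298 in mdx TA, and 4306 and 8144 in mdx5cv TA, with 1.65 ± 0.38 (SE, adjusted p = 0.014) and 1.62 ± 0.49 (SE, adjusted p = 0.12) without it. Of 12 slow fibre genes, 3 were higher and 1 lower with both C57BL10 arrays, and 1 was higher and 1 lower without sample 2.

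Of 15 fast fibre genes, 0 were called by limma in either fit, with medians of 0.17 and -0.10. Of 12 genes of the dystrophin complex and its partners, 2 were higher (Itga7 and Cav3) and 1 lower (Dmd) with both C57BL10 arrays, and 0 were called without sample 2. Cav3, the muscle caveolin, read 6045 and 2613 in C57BL10 TA, 8670.2 and 10116 in mdx TA, and 10539.8 and 9407 in mdx5cv TA. Its difference was 1.28 ± 0.27 (SE, adjusted p = 0.0069) and 0.68 ± 0.27 (SE, adjusted p = 0.36) without it. Itga7, the laminin-binding integrin subunit of muscle, differed by 0.88 ± 0.23 (SE, adjusted p = 0.025) and 0.66 ± 0.27 (SE, adjusted p = 0.37) without it.

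Energy metabolism genes gave no direction that held. Oxidative phosphorylation genes had 1 of 37 called (Sdha) and a median of 0.30 with both C57BL10 arrays, and 0 called by limma and a median of -0.26 without sample 2. For glycolysis, 0 of 19 were called in either fit, and the median went from 0.42 to -0.08. Fatty acid genes went from 0.10 to -0.39. Under quantile normalization, which moved the median of all probe sets by 0.16, the medians of the oxidative phosphorylation, fatty acid and fast fibre lists turned to -0.07, -0.11 and -0.12. Pdk4, which restrains glucose oxidation, read 8514 and 1646 in C57BL10 TA, 16547 and 18914 in mdx TA, and 31588 and 11833 in mdx5cv TA, with 2.30 ± 0.45 (SE, adjusted p = 0.0037) and 1.12 ± 0.43 (SE, adjusted p = 0.33) without it. Lpl, lipoprotein lipase, gave 20659 and 5196 in C57BL10 TA, 4175 and 2118 in mdx TA, and 8025 and 7298 in mdx5cv TA, and passed only without sample 2, at -2.11 ± 0.40 (SE, adjusted p = 0.0049). The summed oxidative phosphorylation signal was 622007 on C57BL10 TA sample 2 and 1319944 on sample 1. Whether the compressed range of sample 2 took part in these turns of direction was not tested.

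**Figure D4:**
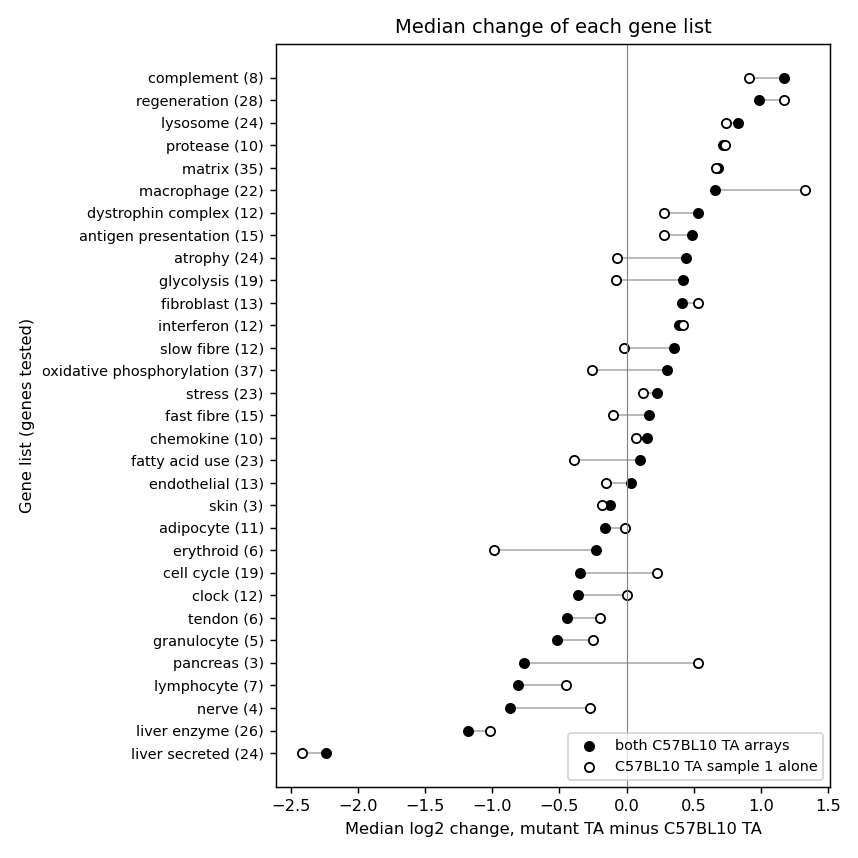
Median log2 change in mutant TA minus C57BL10 TA (horizontal axis) of each of 31 gene lists, with the number of genes tested in brackets, against both C57BL10 TA arrays (filled) and against sample 1 alone (open). Complement, regeneration, lysosome, protease, matrix and macrophage lists stay above 0.5 both ways, the liver lists stay below -1, and the metabolic lists cross 0.

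Of the 50 liver genes tested, 21 were lower and 1 higher with both C57BL10 arrays, where 1.02% of all genes were lower and 3.44% higher. The median log2 difference of the 50 was -1.75, and -1.65 without sample 2. Of the 58 genes lower with both C57BL10 arrays, 21 were in the liver lists, and of the 21 lower without sample 2, 12 were. Among the 19 lower both ways, 12 were liver list genes. Cyp3a11, a liver cytochrome P450, read 2872 and 461 in C57BL10 TA, 146 and 29.7 in mdx TA, and 85.6 and 91.9 in mdx5cv TA, where several mutant arrays were under the floor. Its log2 difference was -3.21 ± 0.49 (SE, adjusted p = 2.9e-04) and -4.53 ± 0.44 (SE, adjusted p = 2.8e-06) without it. Fabp1, the liver fatty acid binding protein, gave 1536 and 852 in C57BL10 TA, 145 and 64.4 in mdx TA, and 52.4 and 24.8 in mdx5cv TA and differed by -3.21 ± 0.49 (SE, adjusted p = 2.6e-04) and -3.63 ± 0.60 (SE, adjusted p = 0.0015) without it. Counting these arrays at the floor understates the fall. A fit without the liver probe sets called 236 probe sets, against 322 with them. The genes called with both C57BL10 arrays held 21 lower and 1 higher liver genes. The drop is therefore not a count of liver probe sets, and why other calls were lost was not tested.

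The other 7 genes lower both ways were Ces1d, Inmt, Mgst1, Ephx1, Selenbp1, Mug-ps1 and Myl3. Inmt, a methyltransferase of small amines, read 3549.6 and 1982 in C57BL10 TA, 1011 and 1020.1 in mdx TA, and 484 and 622 in mdx5cv TA, and was lower on every mutant array, with -1.83 ± 0.29 (SE, adjusted p = 3.9e-04) and -2.25 ± 0.34 (SE, adjusted p = 5.3e-04) without it. Ces1d, a carboxylesterase, gave 1274 and 289.5 in C57BL10 TA, 75 and 248 in mdx TA, and 69.3 and 153 in mdx5cv TA, with 2 mutant arrays under the floor, and differed by -2.01 ± 0.43 (SE, adjusted p = 0.0073) and -3.07 ± 0.42 (SE, adjusted p = 2.9e-04) without it. Ephx1, microsomal epoxide hydrolase, read 837 and 864 in C57BL10 TA, 247 and 255 in mdx TA, and 214 and 284 in mdx5cv TA. It differed by -1.77 ± 0.33 (SE, adjusted p = 0.0022) and -1.75 ± 0.42 (SE, adjusted p = 0.031) without it. Selenbp1, a selenium-binding protein, gave 759 and 1029.8 in C57BL10 TA, 292 and 163 in mdx TA, and 181 and 219 in mdx5cv TA and differed by -2.08 ± 0.29 (SE, adjusted p = 1.0e-04) and -1.86 ± 0.36 (SE, adjusted p = 0.0056) without it.

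The same 7 genes were looked up in C57BL10 TA minus the other C57BL10 limb muscles, where 33 of the 50 liver genes were higher with both arrays and 23 without sample 2. Mug-ps1 was higher there too, by 3.14 ± 0.42 (SE, adjusted p = 3.4e-05) with both arrays and 3.74 ± 0.54 (SE, adjusted p = 2.7e-04) without sample 2. The other 6 did not pass in either fit. Their differences with both arrays and without sample 2 were -0.62 and -0.20 for Inmt, -1.21 and -0.14 for Ces1d, 0.18 and 0.57 for Mgst1, -0.17 and -0.19 for Ephx1, -0.66 and -0.88 for Selenbp1, and -0.58 and -0.34 for Myl3. Of these 6, Mgst1 alone was above 0.

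The 2 mutants were then set against C57BL10 TA separately, and these comparisons share the C57BL10 arrays. mdx TA had 157 probe sets called (2.11%), or 92 (1.23%) without sample 2. mdx5cv TA had 246 (3.3%), or 117 (1.57%). The gene differences that follow are with both C57BL10 arrays alone. For Ctss the differences were 2.79 ± 0.30 (SE, adjusted p = 1.9e-05) in mdx and 3.09 ± 0.30 (SE, adjusted p = 2.7e-06) in mdx5cv. For Postn they were 2.19 and 2.94, for Peg3 2.91 and 3.06, for Myl4 2.29 and 2.63, and for Mt2 2.27 and 2.21 log2 units. For Dmd they were -2.50 ± 0.60 (SE, adjusted p = 0.028) and -1.81 ± 0.60 (SE, adjusted p = 0.094).

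The direct comparison, mdx5cv TA minus mdx TA, used no C57BL10 array and called 12 of 7453 probe sets (0.161%), 10 higher and 2 lower. With C57BL10 TA sample 2 left out of the shared spread, 18 were called. The 12 probe sets covered 10 named genes. Csrp3, a muscle LIM protein of the Z-disc, read 1794 and 1873 in mdx and 7758 and 9588 in mdx5cv. The difference was 2.23 ± 0.47 (SE, adjusted p = 0.049). Gcsh, a subunit of the glycine cleavage system, read 1307 and 1175 in mdx and 4748 and 4562 in mdx5cv, with 1.91 ± 0.28 (SE, adjusted p = 0.0041). Spg21, Erdr1, Igkv6-23, Rbbp4, Siah1a, Fasn and Lsp1 were higher in mdx5cv by 1.36 to 2.75. Hpx, the liver haem-binding protein hemopexin, was under the floor on both mdx5cv arrays and at least 4.79-fold lower there than in mdx (adjusted p = 0.043). The count depends on single arrays: it was 0 by limma without mdx5cv TA sample 2, with 600 probe sets at an unadjusted p under 0.05, and 76 without mdx TA sample 1.

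Whether TA changed more or less than the other limb muscles was tested as an interaction, the change in TA minus the mean change in EDL, gastrocnemius, quadriceps and soleus. It called 69 of 7453 probe sets (0.926%), 13 higher and 56 lower, and 37 (0.496%) without sample 2, with 27 called both ways. It called 191, 70 higher and 121 lower, when the identical columns labelled as both gastrocnemius and quadriceps were left out, an alternative added after the values were seen. Of the 40 genes lower (0.703%), 14 were liver genes, and of the 17 lower without sample 2 (0.299%), 12 were. The other list genes lower were 2 of 22 macrophage genes (Fcgr1 and Mpeg1), 2 of 10 chemokines (Ccl8 at -3.29 ± 0.62 (SE, adjusted p = 0.0067) and Ccl2 at -2.33 ± 0.57 (SE, adjusted p = 0.047)) and 1 of 35 matrix genes (Vcan), with list medians of -1.42, -1.22 and -0.21 against 0.02 over all genes. Without sample 2 the counts were 1, 0 and 0 by limma, with medians of -0.66, -0.92 and -0.21 against -0.02. By limma 0 of 28 regeneration genes were called in either fit. With both C57BL10 arrays the interaction was -0.22 ± 0.29 (SE, adjusted p = 0.67) for Ctss, -0.54 ± 0.31 (SE, adjusted p = 0.32) for Postn, -0.74 ± 0.41 (SE, adjusted p = 0.3) for Myl4 and -0.09 ± 0.30 (SE, adjusted p = 0.87) for Mt2. A miss of the threshold does not show that these changes were equal.

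Fcgr1, the high-affinity antibody receptor of macrophages, read 1269.9 and 1942 in C57BL10 TA, 1392 and 1139.7 in mdx TA, and 841 and 637 in mdx5cv TA. Its change in TA lay below that in the other limb muscles, with an interaction of -2.30 ± 0.37 (SE, adjusted p = 0.0017) and -2.0 ± 0.45 (SE, adjusted p = 0.045) without it, and in C57BL10 TA it was higher than in the other C57BL10 limb muscles by 1.98 ± 0.30 (SE, adjusted p = 1.9e-04) and 1.67 ± 0.40 (SE, adjusted p = 0.035) without it. Notch3, the receptor of pericytes and smooth muscle, read 367 and 673 in C57BL10 TA, 1627 and 1285 in mdx TA, and 1075 and 1710.3 in mdx5cv TA and moved more in TA, by 1.62 ± 0.32 (SE, adjusted p = 0.01) and 2.06 ± 0.36 (SE, adjusted p = 0.0062) without it. Its level with both arrays was lower in C57BL10 TA than in the other C57BL10 limb muscles (-1.84 ± 0.26 (SE, adjusted p = 7.4e-05)), while mutant TA minus the other mutant limb muscles, at -0.21 ± 0.19 (SE, adjusted p = 0.63), did not pass. Snrpd3, a core protein of the spliceosome, had an interaction of 2.02 ± 0.32 (SE, adjusted p = 0.0016) and 1.94 ± 0.39 (SE, adjusted p = 0.02) without it. It too was lower in C57BL10 TA than in the other C57BL10 limb muscles, at -1.62 ± 0.26 (SE, adjusted p = 3.5e-04) and -1.54 ± 0.34 (SE, adjusted p = 0.02) without it.

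A comparison added after the data were seen used no C57BL10 array: mutant TA minus the mean of the other mutant limb muscles. It called 154 of 7453 probe sets (2.07%), 24 higher and 130 lower, and 302 when mdx5cv quadriceps sample 2 was left out. Leaving C57BL10 TA sample 2 out of the shared spread gave 263. Slow fibre genes were lower in TA, 8 of 12, led by Myl2 (-4.46 ± 0.30 (SE, adjusted p = 6.4e-10)) and Myh7 (-3.28 ± 0.19 (SE, adjusted p = 9.1e-11)). The mean log2 level of Myh7, the slow myosin heavy chain, was 9.67 in mdx TA and 11.15 in mdx5cv TA against 16.32 and 16.27 in soleus.

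Some inflammatory and matrix genes were also lower in mutant TA than in the other mutant limb muscles: 5 of 22 macrophage genes, 3 of 10 chemokines, 3 of 15 antigen presentation genes and 8 of 35 matrix genes, with 0 higher in each, while over all genes 11 were higher and 99 lower (1.74%). Cd53, a tetraspanin of leukocytes, had a mean log2 level of 8.72 and 9.50 in TA of mdx and mdx5cv. In EDL, gastrocnemius, quadriceps and soleus it was 11.61, 11.97, 11.36 and 9.61 in mdx. In mdx5cv the same muscles had 10.90, 10.87, 11.25 and 11.09. TA was the lowest muscle in both strains, and the difference was -1.97 ± 0.35 (SE, adjusted p = 0.0017). Ccl8, a monocyte chemokine, differed by -1.77 ± 0.36 (SE, adjusted p = 0.0072), Ccl2 by -1.25 ± 0.33 (SE, adjusted p = 0.048) and B2m, the shared chain of MHC class I, by -1.03 ± 0.24 (SE, adjusted p = 0.018).

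**Figure D5:**
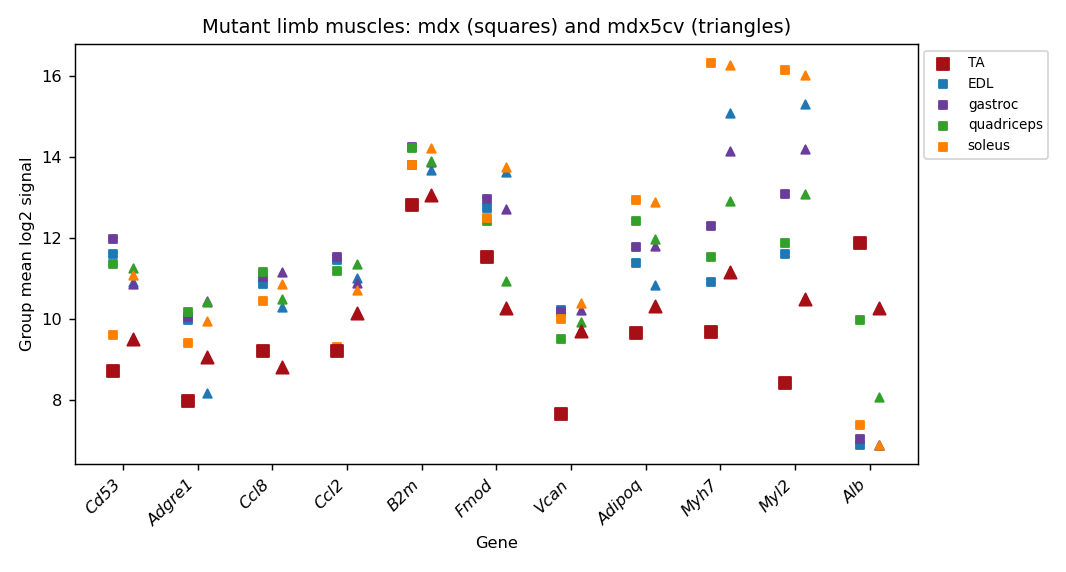
Group mean log2 signal (vertical axis) of 11 genes in the 5 limb muscles of mdx (squares) and mdx5cv (triangles), with TA in large red symbols. For Cd53, Ccl8, B2m, Fmod, Adipoq, Myh7 and Myl2 TA is the lowest of the 5 muscles in both strains, and for Alb it is the highest.

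Adipoq, the fat cell hormone adiponectin, was lower in TA too, at -2.01 ± 0.17 (SE, adjusted p = 3.7e-08), as in the normal strain (-2.12 ± 0.24 (SE, adjusted p = 2.6e-06) and -1.92 ± 0.30 (SE, adjusted p = 5.5e-04) without it). Fmod, the tendon and matrix proteoglycan fibromodulin, differed by -1.80 ± 0.33 (SE, adjusted p = 0.0022) among the mutants and by -2.37 ± 0.45 (SE, adjusted p = 0.0027) and -1.59 ± 0.56 (SE, adjusted p = 0.36) without it in C57BL10. Alb was higher in mutant TA, by 3.59 ± 0.60 (SE, adjusted p = 8.6e-04).

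In the normal strain, C57BL10 TA minus the other C57BL10 limb muscles called 621 of 7453 probe sets (8.33%) with both arrays and 84 (1.13%) without sample 2. Of the genes called both ways, those higher in TA were led by liver genes such as Alb (6.72 ± 0.83 (SE, adjusted p = 1.1e-05) and 7.55 ± 1.12 (SE, adjusted p = 3.4e-04) without it). The slow fibre genes Tnnc1 (-3.92 ± 0.44 (SE, adjusted p = 2.6e-06) and -3.82 ± 0.59 (SE, adjusted p = 5.1e-04) without it) and Myh7 (-2.99 ± 0.27 (SE, adjusted p = 1.6e-07) and -2.85 ± 0.35 (SE, adjusted p = 3.4e-05) without it) were lower. 9 of the 621 probe sets changed sign without sample 2.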

How the data were processed

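Total RNA of 36 muscle samples was hybridised to Affymetrix MG_U74Av2 arrays, named in the experiment files. The authors deposited linear intensities for 12488 probe sets, each array scaled to a trimmed mean of 1500 to 1502 (2% trimmed, as the values show). The signal algorithm is not stated in the labels or file headers. Here, intensities were floored at the 20th percentile (118), 66 control probe sets were removed, and the 7453 probe sets whose mean log2 reached the 40th percentile were kept. Fits used limma 3.58.1 in R 4.3.3 with 1 mean per strain and muscle, 34 distinct arrays, 16 residual degrees of freedom, eBayes with trend and Benjamini-Hochberg adjustment within a contrast (threshold 0.05, two-sided). A gene was read from its probe set with 1 symbol and the highest mean. There were 10855 probe sets with 1 symbol, 396 with several and 1237 with none. Named genes were the 10 highest and 10 lowest without overlap, up to 4 per list, Dmd and Utrn, and, as stated, genes called both ways. For the 10 highest and 10 lowest, the lack of overlap was a condition of the choice and not a result. Members and gene lists were chosen with earlier results of these data known. The fit was tested on simulated data. The number of arrays limits the precision. Alternatives included leaving out each TA array, quantile normalization, a replicate block, other floors and filters, array weights and the 6 TA arrays alone. The comparison of mutant TA with the other mutant limb muscles, and the fits without liver probe sets, without diaphragm or soleus, without both arrays of compressed range, with quantile normalization and no sample 2 together, without the identical columns, or over the arrays with an experiment file, were added after the values were seen.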

Additional observations from a re-analysis of the deposited data

Results flagged for a closer look

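The change in TA differed from the mean change in EDL, gastrocnemius, quadriceps and soleus, by the interaction term of the limma fit, for 69 probe sets. The 5 genes with the most positive interaction were Dbp, a clock-driven transcription factor (2.07), Snrpd3 of the spliceosome (2.02), the transcription factor Cebpb (1.77), Notch3 (1.62) and the small heat shock protein Cryab (1.52), in log2 units. Without C57BL10 TA sample 2 these were 1.04, 1.94, 1.15, 2.06 and 0.79, and of the 5 only Snrpd3 (adjusted p = 0.02) and Notch3 (adjusted p = 0.0062) still passed. The 5 most negative were all liver genes: Mup3 (-4.0) and Mup5 (-3.93), carriers of urinary pheromones, Ahsg (-3.94), the protease inhibitor Serpina1b (-3.70) and Apoa1 (-3.53). Without sample 2 they were -4.77, -4.40, -4.32, -3.75 and -4.12, and all but Serpina1b (adjusted p = 0.15) still passed. Signals under 118 count as 118 in these values, which for Ahsg includes 2 mutant TA arrays. No group has more than 2 arrays, so outlying arrays within a group could not be tested.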

How the results depend on the processing

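The 322 probe sets called for mutant minus C57BL10 TA became 867 with quantile normalization, 514 without a filter on low signal, 45 when a change beyond 1.5-fold was required, 15 with array weights and 0 in the 6 TA arrays alone. They became 116 over the arrays with an experiment file, where the last 2 scanning periods were joined as one block and TA had 1 array per strain, a fit that does not adjust mutant against C57BL10 TA for period. They became 172 without diaphragm arrays, 131 without sample 2 and with quantile normalization together, and 173 without both arrays of compressed range. Leaving out 1 array at a time gave 124 to 2070 calls: 2070 without C57BL10 TA sample 1, 124 without its sample 2, 176 without mdx TA sample 2, and 180 and 194 without mdx5cv TA samples 1 and 2. Without a filter the median of all probe sets moved to -0.44. The same leave-outs gave 32 to 1643 for mdx, 89 to 1751 for mdx5cv, 0 to 76 for mdx5cv minus mdx, 35 to 2120 for the interaction, 84 to 2924 for C57BL10 TA against the other C57BL10 limb muscles and, with mdx5cv quadriceps sample 2 among the arrays left out, 76 to 302 for mutant TA against the other mutant limb muscles. Quantile normalization gave 371, 541, 5 and 1670 for mdx, mdx5cv, their difference and C57BL10 TA against limb, and no filter gave 4 and 2033 for the last 2. The interaction had 38 calls without sample 2 and with quantile normalization, 21 without liver probe sets, 22 without diaphragm and 45 without both arrays of compressed range, and 191 without the identical columns. Mutant TA against the other mutant limb muscles had 542 calls without both.

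Of 55 named genes past the threshold, 28 to 52 passed when 1 array was left out, 30 without sample 2 and with quantile normalization, 30 without both arrays of compressed range, 24 over the arrays with an experiment file, 24 with the minimum fold, 9 with array weights and 0 in TA alone, and none reversed in any of these fits. List medians kept their sign for 21 of 31 lists without sample 2 and 26 of 31 with quantile normalization. With the replicate block the main count was 401, and no count moved by over 1.5 times. Deviations of same-numbered arrays correlated across probe sets at -0.23, 0.00 and 0.03. With 1 difference per strain and the compressed range of C57BL10 TA sample 2, these values cannot decide whether the sample numbers pair arrays. The planned fits with scanning period as a block and within 1 period were not run, since the last period holds C57BL10 TA sample 1 alone and no period holds TA of both sides. Why these counts moved was not tested, except that TA alone leaves 3 residual degrees of freedom.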

Other observations

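Several genes outside the groups above were called both with and without C57BL10 TA sample 2, and were chosen after their values were seen. Rrad, a small GTPase that restrains calcium channels, read 267 and 727 in C57BL10 TA, 1874 and 2473 in mdx TA, and 3206 and 2449 in mdx5cv TA. All mutant arrays were higher, with a log2 difference of 2.48 ± 0.34 (SE, adjusted p = 7.9e-05) and 3.20 ± 0.36 (SE, adjusted p = 2.1e-05) without it. Gadd45a, a growth arrest gene induced in stressed and denervated muscle, gave 1396 and 1475 in C57BL10 TA, 3469 and 5886 in mdx TA, and 4035 and 3968 in mdx5cv TA, with 1.57 ± 0.27 (SE, adjusted p = 0.0014) and 1.61 ± 0.35 (SE, adjusted p = 0.013) without it. Mybph, a myosin-binding protein, read 635 and 1655 in C57BL10 TA, 1845 and 1801 in mdx TA, and 4018 and 5969.7 in mdx5cv TA, where C57BL10 TA sample 2 came close to mdx TA, and its difference was 1.54 ± 0.35 (SE, adjusted p = 0.012) and 2.23 ± 0.39 (SE, adjusted p = 0.0022) without it. Anxa4, an annexin that binds membranes in a calcium-dependent way, gave 818 and 805 in C57BL10 TA, 2296 and 1683 in mdx TA, and 2432 and 1952 in mdx5cv TA, without overlap and with a difference of 1.35 ± 0.22 (SE, adjusted p = 5.2e-04) and 1.34 ± 0.27 (SE, adjusted p = 0.0069) without it. Tubb6, a beta tubulin, read 1840.3 and 3133 in C57BL10 TA, 3967 and 3809.6 in mdx TA, and 8367 and 8009.7 in mdx5cv TA, higher in mdx5cv than in mdx, with 1.23 ± 0.26 (SE, adjusted p = 0.007) and 1.62 ± 0.30 (SE, adjusted p = 0.0045) without it.

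Cell cycle genes had 1 of 19 called either way, but not the same gene. Pcna, the DNA polymerase clamp, passed with both C57BL10 arrays (1.47 ± 0.34 (SE, adjusted p = 0.015)), and Stmn1, a tubulin-binding protein of dividing cells, passed without sample 2, at least 4.74-fold higher in the mutants (adjusted p = 0.021), with C57BL10 TA sample 1 under the floor. Chrng, the embryonic subunit of the acetylcholine receptor, gave 202 and 4563 in C57BL10 TA, 1325 and 959.9 in mdx TA, and 805 and 1067 in mdx5cv TA. C57BL10 TA sample 2 was the highest of the 6 arrays and sample 1 the lowest, and the difference was 0.09 ± 0.72 (SE, adjusted p = 0.95) and 2.34 ± 0.59 (SE, adjusted p = 0.044) without it. The summed signal of the pancreas list was 18535 on C57BL10 TA sample 2 and 2250 to 7103 on the other TA arrays, and that of the granulocyte list was 21062 against 6290 to 7876.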
